A study of Homo sapiens with 8 samples.

Results

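The olfactory receptor genes of chromosome 11 were taken as the protein-coding genes of that chromosome whose symbol is OR followed by a number, letters and a number, in the GENCODE annotation mapped to GRCh37. This rule found 171 of the 20098 protein-coding genes of chromosomes 1 to 22 and X, and the same form of symbol was carried by 228 genes on other chromosomes. Each gene was described over its annotated body plus 2 kb upstream of its start, which is called its stretch here. The data came from PC9, an established human lung adenocarcinoma cell line, so every value below describes 1 cell line. The 4 groups had 2 libraries each and held chromatin from cells given DMSO, the vehicle, or from cells given 1 μM GSK126, a small molecule inhibitor of the methyltransferase EZH2, for 5 days, each precipitated with an antibody to H3K27me3 or to H3K4me3. All 8 reactions also held D. melanogaster chromatin and an antibody to the fly histone variant H2Av, and the labels give no genetic modification for either treatment. What was deposited is lists of SICER islands, regions in which sequencing tags were denser than a random background allows. The share of a stretch that lies within islands, its covered share, is the measurement used throughout, and a gene is called touched when at least 1 bp of its stretch lies in an island.

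Olfactory receptors are G protein-coupled receptors of the nasal epithelium, where each sensory neuron uses a single receptor gene and keeps the others off. In the mouse olfactory epithelium the silent receptor genes are known to lie in compacted chromatin marked by H3K9me3 and H4K20me3, and cells of other tissues hold most of them off as well. H3K27me3 is the product of EZH2 and marks genes held silent by Polycomb complexes, whereas H3K4me3 marks the starts of active genes and of genes poised for activity. The receptor genes are therefore taken as a silent class in a lung line, although the lists hold no expression levels and transcription was not measured.

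Receptors of families 51, 52, 55 and 56 are called class I, and the remaining families class II. Chromosome 11 held 55 class I and 116 class II genes. They lay in 11 runs when neighbours at most 500 kb apart were joined. Run 1, from OR52B4 to OR52W1 (chr11:4388493-6221416, 1833 kb), held all 55 class I genes. The class II genes were spread over run 2 from OR2AG2 to OR2D3 with 8 genes, run 3 from OR5P2 to OR10A3 with 4, run 4 from OR4B1 to OR4A47 with 7, run 5 from OR4C13 to OR4C12 with 2, run 6 from OR4A5 to OR4C46 with 3, run 7 from OR4A16 to OR5AK2 with 48, run 8 from OR9Q1 to OR5B21 with 13, run 9 from OR5AN1 to OR10V1 with 8, OR2AT4 alone as run 10, and run 11 from OR6X1 to OR8A1 with 22. The median stretch was 3.07 kb, 97 of the genes had 1 exon, and only OR51B5 (204 kb) and OR9Q1 (160 kb) had stretches over 100 kb. Tags that aligned to more than 1 place had been removed, and receptor genes are a family of related sequences. Counted as exact copies, 94.6% of the 50-base words in the receptor stretches occurred once in the genome, against 94.7% in other protein-coding stretches of chromosome 11. Near copies were not counted, and the part of mapping in the coverage of receptor genes was not tested. The share was under 90% in 21 receptor genes, the lowest being 64.8% in OR4A47, and none of these 21 was touched by H3K27me3 in both DMSO lists.

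H3K27me3 covered less of the chromosome 11 receptor genes than of the genome before treatment, and almost none of them after treatment. In the lists made with the spike-in normalization, which are used unless stated otherwise, islands covered 6.44% of the pooled receptor stretches in DMSO replicate 1 and 7.58% in replicate 2 (7.01% ± 0.810, SD, n = 2). The genome as a whole was covered to 9.05% and 9.87% in the same lists, so the receptor share was 0.711 and 0.768 times that of the genome. With GSK126 the receptor share was 0.358% and 0.317% (0.337% ± 0.0292, SD, n = 2) while the genome share was 4.19% and 4.36%, and the receptor share came to 0.0854 and 0.0726 times that of the genome. On the log2 scale, GSK126 over DMSO within a replicate came to -4.17 and -4.58 for the receptor genes and -1.11 and -1.18 for the genome. The receptor genes thus fell further than the genome by 3.06 and 3.40 on the log2 scale (SD 0.25, n = 2). Each GSK126 share rests on only 2 islands that touched a receptor gene, so these log2 values stand near the floor. With a stricter score the GSK126 share was 0% and no log2 difference could be computed. No test was made on 2 replicates, for which the smallest p of a sign-flip test is 0.5. The tag density behind these lists, read from the island scores, was 1.65 and 2.33 tags per 200-bp window with DMSO and 0.382 and 0.455 with GSK126, that is 23.1% and 19.6% of the DMSO density. Density and treatment therefore moved together in the spike-in lists, and the part that density plays in the receptor values was not tested.

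**Figure D1:**
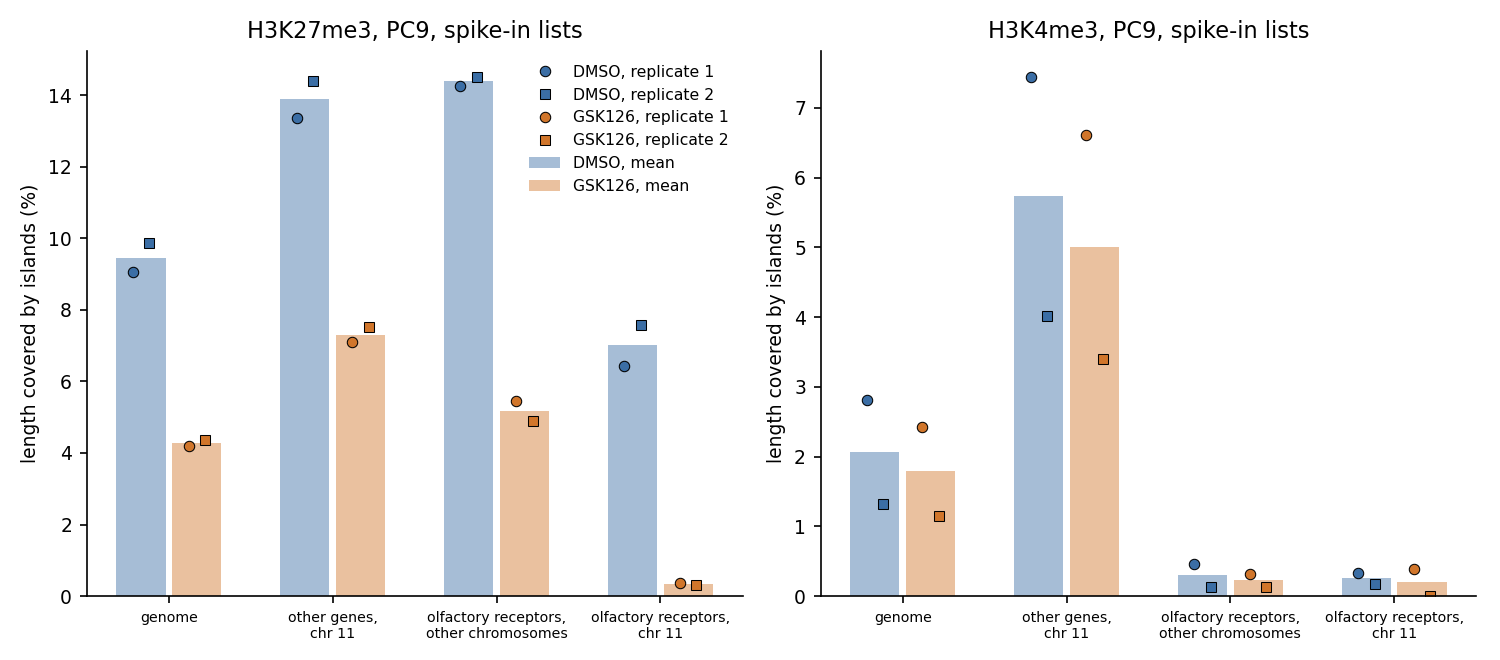
Share of length covered by H3K27me3 (left) and H3K4me3 (right) islands, in percent, in the genome, in other protein-coding genes of chromosome 11 and in the olfactory receptor genes of other chromosomes and of chromosome 11. Bars are means of 2 libraries and points are the libraries. H3K27me3 covered 6.44% and 7.58% of the chromosome 11 receptor genes with DMSO and 0.358% and 0.317% with GSK126, and H3K4me3 covered less than 0.5% in every library.

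Low coverage was not seen over the chromosome as a whole. Islands covered 13.6% and 14.7% of the whole of chromosome 11 with DMSO, and 13.4% and 14.4% of the stretches of its other 1146 protein-coding genes, both above the genome. The other genes of chromosome 11 were still covered to 7.09% and 7.51% with GSK126. Receptor genes elsewhere differed too, since the 228 receptor genes of other chromosomes were covered to 14.3% and 14.5% in DMSO cells and to 5.46% and 4.90% with GSK126. The pooled share of the 24 TAS2R genes, which encode bitter taste receptors, was 1.07% and 1.04% with DMSO, and no TAS2R gene had an island with GSK126. With each gene counted once the classes were closer, at 5.91% and 5.77% for the TAS2R genes and 6.25% and 6.84% for the chromosome 11 receptor genes with DMSO. The 39 HOX genes, textbook targets of EZH2, had 41.9% and 46.7% covered with DMSO and 28.3% and 30.9% with GSK126.

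Under the standard normalization, in which both libraries of a replicate had been brought to the same number of human tags, the fall was smaller and less even. The receptor genes were covered to 5.19% and 6.08% in DMSO cells and to 4.15% and 1.79% with GSK126. The log2 ratio was -0.33 in replicate 1 and -1.77 in replicate 2, against -0.21 and -0.45 for the genome. In replicate 1 the receptor genes then differed from the genome by -0.11 and in replicate 2 by -1.31 on the log2 scale (-0.71 ± 0.85, SD, n = 2), so the further fall of the receptor genes was within the spread between replicates. Tag density was equal within a replicate here, at 1.36 tags per window in both libraries of replicate 1 and 1.55 in both libraries of replicate 2. The mean for GSK126, 2.97%, was more than 8 times the mean from the spike-in lists.

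Most receptor genes had no island at all. An H3K27me3 island touched 22 of the 171 genes (12.9%) in DMSO replicate 1 and 23 (13.5%) in replicate 2. Of all protein-coding genes, 29.8% and 30.0% were touched in the same lists, so most genes of any kind had no H3K27me3 island. Among the receptor genes 19 (11.1%) were touched in both, whereas 27.7% of all protein-coding genes were touched in both lists. Among the 228 receptor genes of other chromosomes 54 (23.7%) were touched in both, and among the HOX genes 26 (66.7%). Of the 7959 genes with a stretch of at most 20 kb, 26.4% were touched in both lists. That limit does not match the receptor stretches, with their median of 3.07 kb. The 19 receptor genes touched in both DMSO lists had a median stretch of 7.58 kb, and those touched in neither 3.07 kb. The part of stretch length in these counts was not tested. In neither DMSO list was an island found on 145 receptor genes, and 143 had no island of either mark in any of the 14 lists. The matching counts over all protein-coding genes are not given here, so these counts are not set against a background. With GSK126 only OR2AT4 was touched in both lists, against 15.6% of all protein-coding genes. In the standard lists 15 receptor genes were touched in both DMSO lists (25.4% of all genes) and 9 in both GSK126 lists (21% of all genes).

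Touched genes were not spread evenly over the runs. Class I had 2 of its 55 genes touched in both DMSO lists, OR51D1 and OR51E1, which lie next to each other and shared an island, and class II had 17 of 116. Run 9 held 5 of the 19 touched genes among its 8 members, and run 11 held 5 among 22. Runs 4, 7 and 8 held 2 each, and OR2AT4 was the only gene of run 10. No gene of runs 2, 3, 5 or 6 was touched in either DMSO list. Whole runs, spaces between genes included, amounted to 5.87 Mb and were covered to 3.40% and 3.90% in DMSO cells and to 0.428% and 0.527% with GSK126, below the shares of the receptor stretches in both DMSO lists. Islands numbered 53 and 64 within the runs with DMSO and 9 in each replicate with GSK126. Neighbours that share an island are not independent of each other, as with OR9Q1, whose long stretch also holds the islands that touched OR6Q1 in replicate 1 and OR9I1 in replicate 2.

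**Figure D2:**
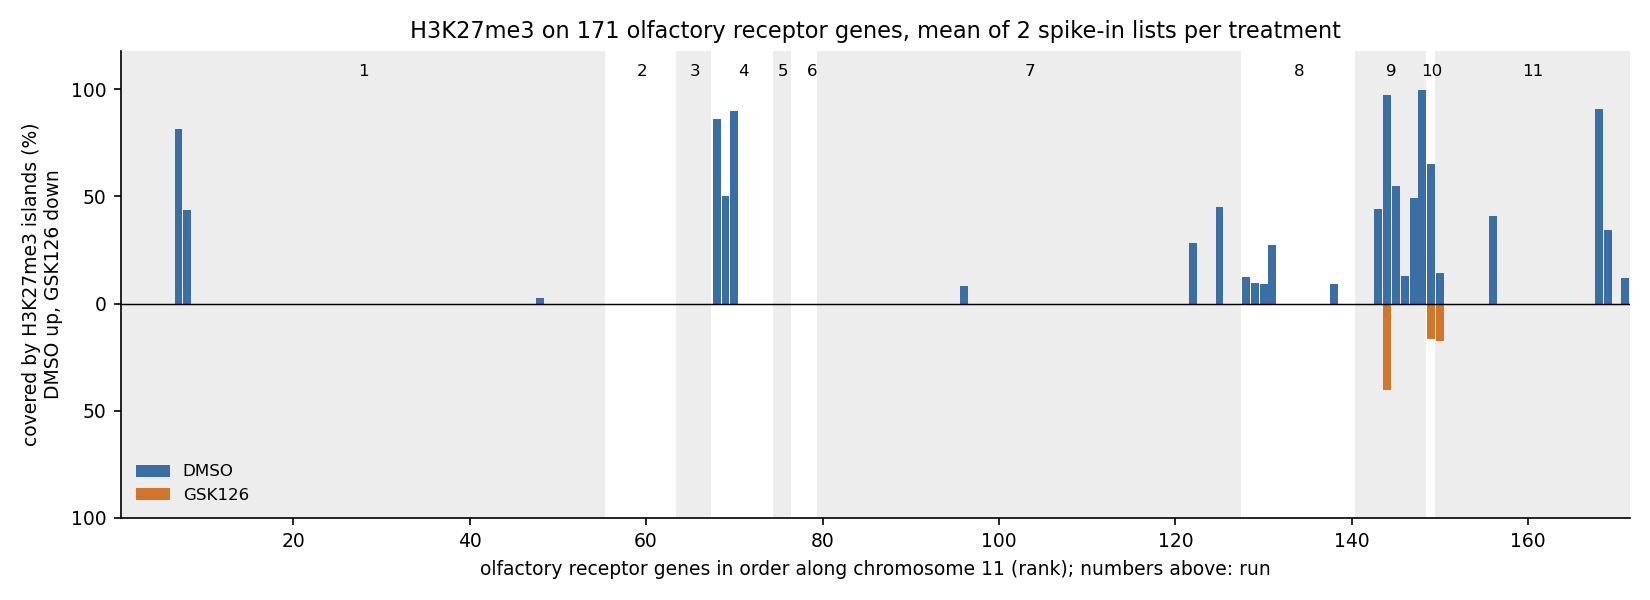
Covered share of every olfactory receptor gene of chromosome 11 in H3K27me3 spike-in lists, in percent, as the mean of 2 DMSO lists (bars up) and of 2 GSK126 lists (bars down). Genes stand in chromosomal order and shading and numbers mark the 11 runs. With GSK126 a bar remains at OR4D6, OR2AT4 and OR6X1.

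The genes with the highest coverage were covered over most or all of their stretch. OR10V1, at the end of run 9 (chr11:59480389-59481318, minus strand), was covered to 99.6% and 100% in DMSO cells and to 0% in both GSK126 lists. Its stretch overlaps the start of STX3, which encodes a syntaxin, and H3K27me3 covered STX3 itself to 3.39% and 12.7% in DMSO cells and to 0% with GSK126. STX3 also carried H3K4me3, at 6.78% and 3.18% with DMSO and at 6.57% and 3.60% with GSK126. None of that H3K4me3 lay in the OR10V1 stretch. In the standard lists H3K27me3 covered OR10V1 to 99.6% and 27.7% in DMSO cells and to 100% and 34.5% with GSK126, so the groups overlapped and neither replicate showed a fall. OR4D6 (chr11:59224434-59225378, plus strand) was covered to 100% and 94.3% in DMSO cells, and to 80.7% in GSK126 replicate 1 but 0% in replicate 2. This gene is where the GSK126 replicates differed most. OR8B4 (chr11:124293838-124294767, minus strand) was covered to 87.5% and 94.3% in DMSO cells and to 0% with GSK126, and the standard lists gave the same 4 values. OR4X1 (chr11:48285413-48286330, plus strand) behaved alike, with 100% and 79.8% with DMSO and 0% in all 4 GSK126 lists of both normalizations. For its neighbour OR4B1 the values were 72.7% and 100% with DMSO and 0% with GSK126, but the standard lists gave 15.0% and 100% with DMSO and 96.9% and 0% with GSK126, which is a fall in 1 replicate and a rise in the other. OR4X2, which lies between these 2 genes, was covered to 0% and 100% with DMSO and was thus touched in only 1 replicate. OR4D10 had 52.2% and 57.2% and OR4D9 had 51.2% and 47.6% with DMSO, and both were at 0% with GSK126.

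OR51D1 (chr11:4658707-4664290, plus strand) and OR51E1 (chr11:4664650-4676718, plus strand), the latter also known from prostate tissue as PSGR2, were the only class I genes touched in both replicates. A single island lay over both, at chr11:4658001-4668000 in DMSO replicate 1 and chr11:4658201-4669600 in replicate 2. It covered OR51D1 to 82.9% and 80.3% and OR51E1 to 38.0% and 49.4%, including the whole 2 kb upstream of OR51E1. Both were at 0% in the GSK126 spike-in lists. In the standard lists the island was still present with GSK126, covering OR51D1 to 77.7% and 51.3% against 82.9% and 82.9% with DMSO, and OR51E1 to 36.6% and 22.4% against 38.0% and 35.2%. OR51E2, the related prostate receptor PSGR (chr11:4701401-4719084, minus strand), had no island of either mark in any list.

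OR2AT4 (chr11:74792798-74807921, minus strand), a receptor also described in skin keratinocytes, was the one gene that kept an island in every H3K27me3 list. It was covered to 62.6% and 67.3% in DMSO cells and to 14.02% and 18.7% with GSK126, and the 2 groups did not overlap. The difference was -48.6 percentage points on average. The DMSO islands reached from the upstream 2 kb into exons and introns of the gene, the first at chr11:74799201-74810600 in replicate 1, whereas the GSK126 islands were 2400 bp and 3200 bp wide and lay at the start, at chr11:74807401-74809800 and chr11:74805401-74808600. In the standard lists OR2AT4 was covered to 62.6% and 70.8% in DMSO cells and to 39.2% and 33.9% with GSK126, a fall in both replicates under either normalization.

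**Figure D3:**
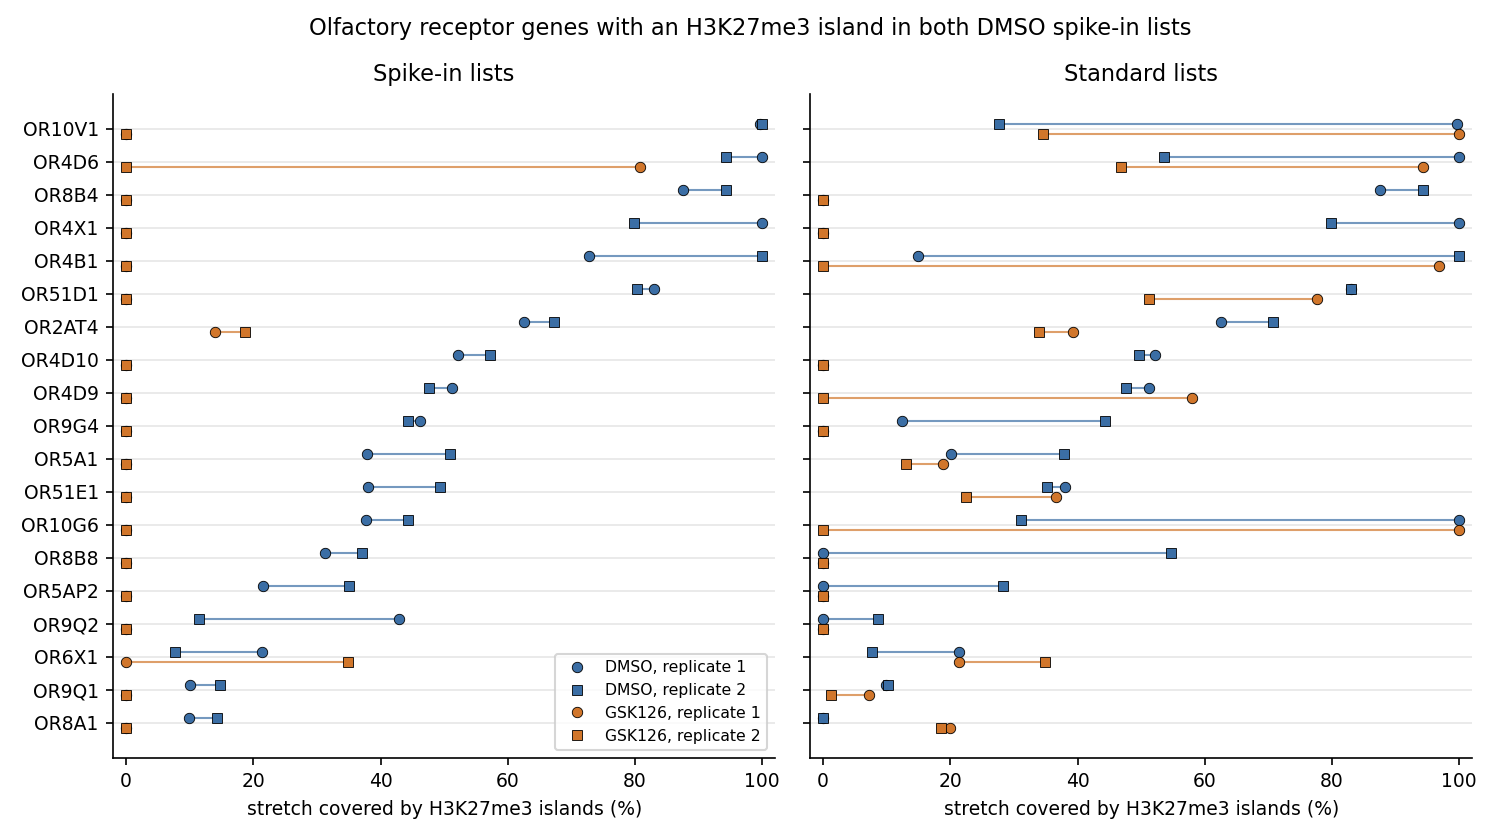
Covered share, in percent, of the 19 olfactory receptor genes with an H3K27me3 island in both DMSO spike-in lists, in the spike-in lists (left) and the standard lists (right). Circles are replicate 1 and squares replicate 2, lines join the 2 replicates of a treatment, and a square at 0 can hide a circle. In the spike-in lists 16 of the 19 genes stand at 0 in both GSK126 lists, and in the standard lists the treatments overlap for many genes.

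Counted by gene, the covered share fell by at least 10 percentage points in both replicates at 17 of the 171 receptor genes (9.94%), against 15.7% of all protein-coding genes. The share of all receptor genes that fell was therefore below the background. Among the 19 genes touched in both DMSO lists the 17 made up 89.5%. Of genes chosen in the same way, 63.3% of the 2102 short genes (a stretch of at most 20 kb) fell. So did 55.7% of the 406 other genes of chromosome 11, 75.9% of the 54 receptor genes elsewhere and 42.3% of the 26 HOX genes. Choosing genes by their DMSO islands favours a fall in every group. The groups were not matched for island score, and their difference was not tested. Of the same 19 genes 16 (84.2%) had no island in either GSK126 list, against 35.5% of the short genes and 51.9% of the other receptor genes. OR9Q1, with a fall of 10.0 and 14.8 points, stood just inside the limit, and OR8A1, with 9.85 and 14.2 points, just outside it. No receptor gene rose by that much in both replicates, and 0.0149% of all genes did. OR6X1 moved in opposite directions, with 21.3% for DMSO and 0% for GSK126 in replicate 1 but 7.69% and 34.9% in replicate 2, over its upstream 2 kb alone. In the standard lists 5 receptor genes fell (5.02% of all genes), namely OR4X1, OR9G4, OR4D10, OR8B4 and OR2AT4, all of which had also fallen in the spike-in lists. A single gene rose there (0.214% of all genes), OR8A1, with no island in either DMSO list and 19.9% and 18.6% covered with GSK126. The direction at OR8A1 thus turned with the normalization. Its DMSO islands in the spike-in lists lay at different places. They were at chr11:124439201-124441000 in replicate 1 and chr11:124449801-124452400 in replicate 2, at the 8.23 and 6.44 percentile of score.

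The islands on receptor genes were short and of low score. In the DMSO lists 27 and 29 islands touched a receptor gene, with a median width of 3.2 kb and 3.8 kb against 4.8 kb and 5.0 kb for all islands. Their median score stood at the 32.2 and 35.0 percentile of all islands of the list, and the highest, the island on OR2AT4 in both replicates, at the 83.5 and 77.1 percentile. Of these islands 2 of 27 (7.41%) and 2 of 29 (6.90%) overlapped an island of the GSK126 list, namely those on OR2AT4 and OR4D6 in replicate 1 and on OR2AT4 and OR6X1 in replicate 2. Over the whole genome 39.98% and 34.3% of the DMSO islands overlapped a GSK126 island. That share rose steeply with the score, from 3.48% and 3.15% in the lowest decile to 99.97% and 99.7% in the highest. Had islands on receptor genes overlapped at the rate of all islands in the same deciles, 20.9% and 13.3% of them would have done so, or 5.64 and 3.86 islands. In the standard lists 12 of 17 (70.6%) and 7 of 21 (33.3%) overlapped, against 64.5% and 44.8% at the rate of the same deciles, above it in 1 replicate and below it in the other. Receptor islands were thus of lower score than most islands, and no test was made on counts this small.

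**Figure D4:**
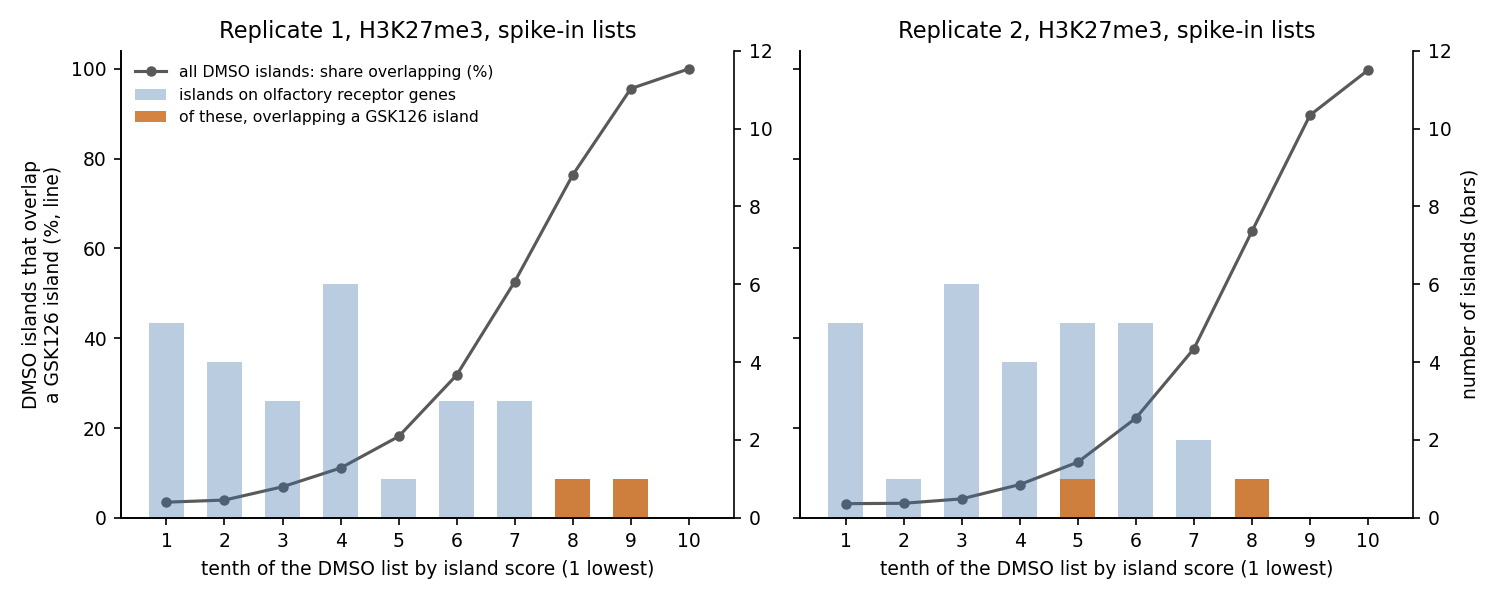
DMSO H3K27me3 islands of the spike-in lists by decile of score, for replicate 1 (left) and replicate 2 (right). The line gives the percentage of all DMSO islands in a decile that overlapped a GSK126 island, and bars give the number of islands on olfactory receptor genes and, in orange, those that overlapped. Receptor islands gather in the low and middle deciles. There the share of all islands that overlapped ran from 3.48% and 3.15% in decile 1 to 52.6% and 37.7% in decile 7.

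Receptor genes were also far from the nearest H3K27me3 island. The median distance from a stretch to an island was 75.5 kb and 54.9 kb with DMSO, compared with 21.5 kb in both replicates for all protein-coding genes and 50.0 kb and 50.1 kb for the receptor genes of other chromosomes. With GSK126 the median was 215 kb and 306 kb, against 86.1 kb and 97.8 kb for all genes. The pattern was one of distance within a limited range with DMSO, as 32.2% and 37.4% of the receptor genes had an island within 30 kb against 54.1% and 54.2% of all genes, but 91.8% and 96.5% had one within 300 kb against 86.2% and 85.9%. With GSK126 the receptor genes stayed behind at 300 kb too, at 61.4% and 49.7% against 71.4% and 69.5%. Class I genes were 85.6 kb and 84.4 kb from an island with DMSO at the median and 108 kb and 138 kb with GSK126, and class II genes 65.8 kb and 48.1 kb and then 270 kb and 471 kb. Genes of a run share their nearest island, so these distances describe a small number of places.

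**Figure D5:**
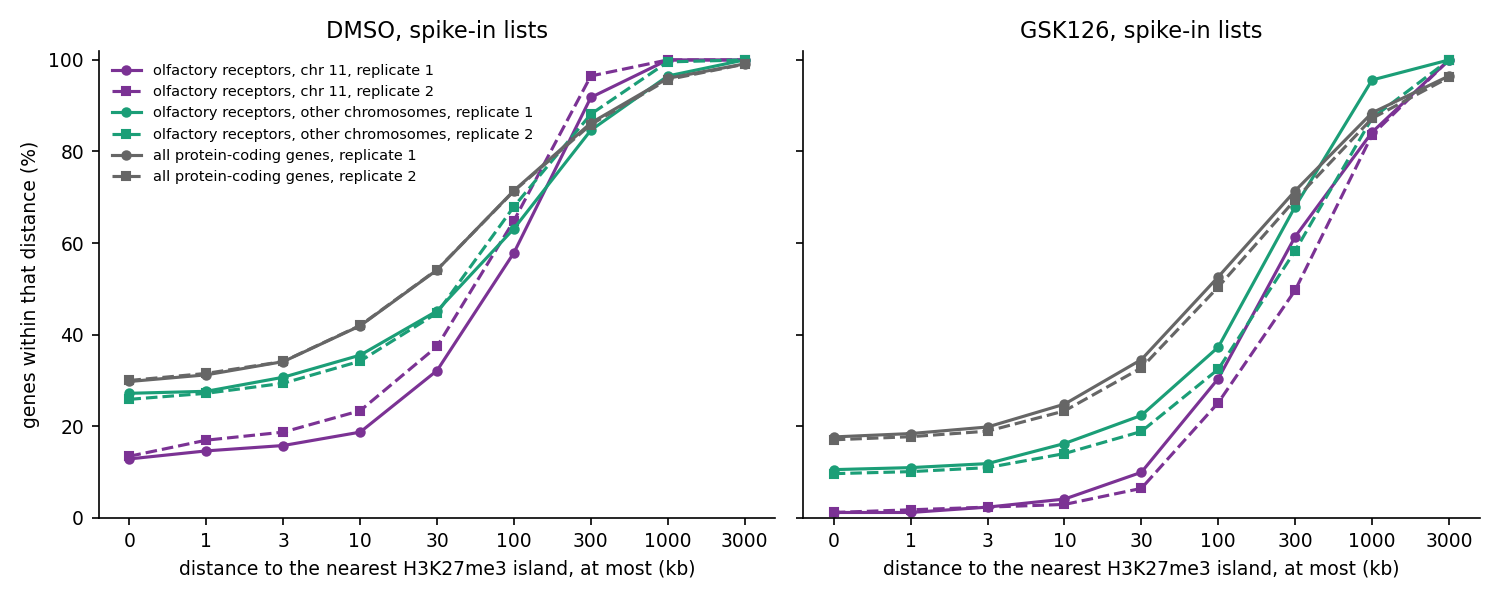
Percentage of genes with an H3K27me3 island within a given distance of the stretch, in kb (0 is overlap, and the steps of the axis are not to scale), with DMSO (left) and GSK126 (right), for the olfactory receptor genes of chromosome 11, those of other chromosomes and all protein-coding genes. Solid and dashed lines are replicates 1 and 2. Within 30 kb the chromosome 11 receptor genes stand lowest, at 32.2% and 37.4% with DMSO and at 9.94% and 6.43% with GSK126.

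H3K4me3 was all but absent from the receptor genes in every library. Islands covered 0.330% and 0.180% of the pooled stretches with DMSO and 0.390% and 0% with GSK126, when the genome was covered to 2.81% and 1.32% and then to 2.42% and 1.15%. OR51B5 was the single gene touched in both DMSO lists, whereas 68% of all protein-coding genes were. No receptor gene was touched in both GSK126 lists, against 67.3% of all genes, and none fell or rose by 10 percentage points in both replicates, against 1.05% and 0.0498%. Replicate 2 of this mark was shallow, with 0.302 tags per window with DMSO and 0.263 with GSK126 compared with 1.77 and 1.48 in replicate 1, and the part of depth in the values of that replicate was not tested. OR51B5 was covered to 2.15% and 0.881% in DMSO cells and to 2.06% and 0% with GSK126. Its island, at chr11:5523401-5527800 in DMSO replicate 1, lay at the start of a gene model of 202 kb (chr11:5324674-5526882, minus strand), and the models of the fetal and embryonic globin genes HBG2 and HBE1 begin within 100 bases of the same place on the same strand, so that the island cannot be assigned to the receptor. OR52N2 was touched in DMSO replicate 2 (4.12%) and in GSK126 replicate 1 (6.87%), by an island at its start (chr11:5829801-5830400 in the former) that lies within the long model of TRIM5, an antiviral restriction factor. No receptor gene carried islands of both marks in the DMSO lists.

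In the 11 runs lay 30 other protein-coding genes, and their counts are set beside those of all genes. Among them were receptor loci whose symbols fall outside the rule, OR51C1P, OR56B2P, OR5D3P, OR5AK3P, OR8G3P and OR8G2P. These had no island of either mark in the spike-in lists. Overlapping models, such as TRIM6, TRIM6-TRIM34 and TRIM34, were each counted, so the counts are not of independent genes. H3K4me3 touched 12 of the 30 in both DMSO lists, against 68% of all protein-coding genes, and H3K27me3 touched 4, against 27.7%. Several tripartite motif genes inside run 1 carried H3K4me3, with TRIM21 covered to 14.8% and 7.40%, TRIM68 to 19.0% and 12.1% and TRIM6 to 14.9% and 5.31% with DMSO. None of these 3 had H3K27me3 in the spike-in lists. Others of the family differed. TRIM5 had H3K4me3 at only 0.505% and 0.216% with DMSO. It carried H3K27me3 at 2.02% and 2.81% with DMSO and at 1.66% and 1.37% with GSK126. TRIM22 had neither mark in the spike-in lists. In run 9, OSBP, which encodes an oxysterol-binding protein, was covered by H3K4me3 to 12.1% and 6.92% and PATL1, an mRNA decay factor, to 13.1% and 8.74%. Both lie between OR4D9 and OR10V1, receptor genes with H3K27me3 and no H3K4me3. By contrast the adult globin genes HBB and HBD, which lie inside run 1, had neither mark, and the same was true of TMEM225 in run 11.

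The exact permutation test over the 8 libraries asked whether the receptor genes stood apart from the genome by a different factor for the 2 marks. The receptor share divided by the genome share was 0.711, 0.768, 0.0854 and 0.0726 in the H3K27me3 libraries and 0.117, 0.137, 0.161 and 0 in the H3K4me3 libraries. The means differed by 0.306 with p = 0.314 (two-sided exact permutation test, 70 splits, n = 4 libraries a mark, smallest p 0.0286). The 2 DMSO libraries of H3K27me3 lay above all H3K4me3 libraries, and the 2 GSK126 libraries lay among them. The test set aside treatment and replicate, so the gap between DMSO and GSK126 counted as spread within H3K27me3. From the standard lists the difference was 0.421 with p = 0.0286, the smallest the exact permutation test can give. This was the only test made.

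The annotated starts of the receptor genes were poor in CG, the dinucleotide whose density marks the CpG islands of many Polycomb targets. For the 97 receptor genes with 1 exon, OR4X1 included, the annotated start may not be where transcription begins. Their windows may therefore differ in kind from those of other genes. In a window from 250 bases before to 50 bases after the annotated start, read from GRCh37, receptor genes held a median of 1 CG, all protein-coding genes 18 and HOX genes 15. At least 10 CG were found in 4 receptor genes (2.34%) and in 66.2% of all genes. The 4 were OR51D1 with 10, OR52N2 with 14, OR10Q1 with 18 and OR56A3 with 21. OR51D1 was covered to over 80% with DMSO, OR52N2 carried H3K4me3 alone, OR56A3 was touched by H3K27me3 in 1 DMSO list (5.62%) and OR10Q1 had no island. The 19 genes touched in both DMSO lists held a median of 2 CG, and the 145 genes touched in neither a median of 1. For comparison, the 5573 protein-coding genes touched in both DMSO lists held a median of 13. The letters TAATTA, a core of homeodomain binding sites that reads the same on both strands, occurred in the window of 35 receptor genes (20.5%), in 21.9% of the receptor genes of other chromosomes and in 3.82% of all genes. It was in 1 of the 19 touched genes. Base composition went with this, as the median GC content was 38.1% for the receptor stretches and 45.1% for all stretches.

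Of the covered genes, OR4X1 held 3 CG in the 300-base window around its start. The 200 bases before its annotated start are shown because they lay wholly in islands with DMSO and hold no CG, at chr11:48285213-48285412 of GRCh37, 5′ to 3′ on the plus strand, and CG would stand in capitals if the sequence held any.
OR4X1: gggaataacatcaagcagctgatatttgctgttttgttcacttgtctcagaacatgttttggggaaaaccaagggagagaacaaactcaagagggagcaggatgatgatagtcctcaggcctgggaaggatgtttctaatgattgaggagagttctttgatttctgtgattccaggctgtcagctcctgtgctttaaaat
All of these 200 bases lay in an H3K27me3 island in both DMSO lists and in neither GSK126 list. The sequence holds 0 CG and has a GC content of 43.0%.

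Genes that work with the receptors are described beside them, without a test. Of 18 genes of olfactory transduction, receptor export and receptor choice, 12 were touched by H3K27me3 in both DMSO lists (27.7% of all protein-coding genes) and 8 in both GSK126 lists (15.6% of all genes). By at least 10 points in both replicates, 9 fell (15.7% of all genes) and none rose. OMP, the marker protein of mature olfactory neurons, lies on chromosome 11 and was covered to 100% in both DMSO lists and to 0% with GSK126. CNGA4, a subunit of the olfactory cyclic nucleotide-gated channel that lies just beyond run 1, was covered to 55.6% and 50.4% in DMSO cells and to 0% with GSK126, and it also carried H3K4me3 at 34.1% and 17.1% with DMSO and at 27.3% and 18.8% with GSK126. RTP1 and RTP2, which bring receptors to the cell surface, had 81.1% and 37.6% and 81.8% and 88.2% with DMSO, and with GSK126 RTP1 was at 0% while RTP2 kept 50.1% and 62.8%. CNGA2, the principal channel subunit, kept 95.0% and 90.6% with GSK126 of a full 100% with DMSO. LHX2, a homeodomain factor that binds receptor enhancers, was at 82.8% and 91.7% with DMSO and at 62.0% and 94.6% with GSK126, so its replicates went in opposite directions. Its partner LDB1 and the demethylase gene KDM1A had no H3K27me3, and H3K4me3 covered LDB1 to 63.8% and 40.3% with DMSO. H3K4me3 touched 10 of the 18 in both DMSO lists, a smaller share than the 68% of all protein-coding genes.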

How the data were processed

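Single-end tags of 50 nt were aligned to hg19 with BWA, and SAMtools 0.1.18 is also named in the submitters' processing notes. The authors dropped duplicates and tags that did not map uniquely, then discarded tags at random, either to equal human tag numbers within a replicate (standard lists) or by the D. melanogaster tag count (spike-in lists). They then called islands per library with SICER (windows of 200 bp, E-value 1, gap of 600 bp for H3K27me3 but 200 bp for H3K4me3). The deposited lists give each island a score, the authors' own, which was used only to rank islands, to set a stricter threshold and to estimate tags per window. There were 14 lists from 8 libraries. Each H3K4me3 DMSO library had 1 list, which served for both normalizations.

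Antibody and treatment came from the sample labels. Replicates were numbered by the order of the samples and paired because tags had been scaled within a replicate, as the study's supplement names the libraries. Nothing in the labels says whether replicates were separate cultures, but the paper calls its repeated PC9 experiments biological replicates. Python 3.11.15 with NumPy 2.4.6 gave covered shares, counts and distances from the GENCODE annotation mapped to GRCh37, and Matplotlib 3.10.9 drew the figures. Stretches of genes that overlap were counted for each gene. The calculations were tested on simulated data.

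The receptor genes, the gene lists and the tests were chosen with earlier results of these data known. Genes were named by rule: the 10 receptor genes with the highest mean H3K27me3 share with DMSO, the 5 with the largest fall and the 5 with the largest rise seen in both replicates (no gene met the latter), those with H3K4me3 in both DMSO lists, the ends of runs, covered genes inside runs, and the transduction list. OR51E1, OR51E2, OR52N2, OR9G4, OR10Q1, OR56A3, OR6Q1, OR9I1, HBB, HBD and TMEM225 were named after their values were seen. So were TRIM22 and the receptor loci inside runs that fall outside the symbol rule. Alternatives were standard lists, a stricter score, a minimum island length, the gene body alone, other overlap and difference limits, each replicate left out and other background genes. The lists hold no tag counts per gene, so no counting intervals are given. Start sequences of the other receptor genes are not reported here.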

Additional observations from a re-analysis of the deposited data

How the results depend on the processing

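The standard lists moved most values. The mean H3K27me3 share of the receptor genes was then 5.64% with DMSO and 2.97% with GSK126, 0.640 and 0.405 times the genome share, the further fall on the log2 scale was -0.71, 9 genes were touched in both GSK126 lists, 5 fell and 1 rose, and the difference between marks was 0.421. With only islands of at least 2 times the lowest score, the share was 3.99% with DMSO and 0% with GSK126, 0.492 and 0 times the genome share, 8 and 0 genes were touched, 6 fell, and no log2 difference could be computed. Over gene bodies alone the GSK126 share was 0.201%, the ratios to the genome 0.796 and 0.0467 and the log2 difference -4.13. The next settings were chosen after seeing the data. Without OR51B5 and OR9Q1, the genes over 100 kb, the ratios were 0.803 and 0.109, the GSK126 share 0.464% and the log2 difference -2.89. With each gene counted once, against all protein-coding genes, they were 0.488 and 0.0668, 0.434% and -2.94. Requiring 50% of a stretch to be covered left 8 genes with DMSO and 0 with GSK126, and 0 with H3K4me3. Without the genes under 90% unique words no gene had H3K4me3 in both DMSO lists, as OR51B5 is one of them. With 1 replicate left out, 2 genes were touched with GSK126 in either case, 0 to 1 rose (OR6X1 without replicate 1) and 1 to 2 had H3K4me3 with DMSO (OR52N2 the second without replicate 1). Without the replicate block, that is with both GSK126 lists set against both DMSO lists, 17 genes fell and 0 rose, as with the pairing. The cause of these differences was not tested. In all settings that gave a log2 difference, the receptor genes fell further than the background in the mean of the replicates. The number of tags limits what the GSK126 spike-in lists and H3K4me3 replicate 2 can show, and no test of treatment was made on 2 replicates.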
